A study of Mus musculus with 102 samples.

Results

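Distal H3K4me1 peaks of mouse R1 embryonic stem (ES) cells that were absent from the list of H3K4-methylated regions of a second ES line are described here, and are called private peaks. A peak was private when it was listed as distal, overlapped no H3K4me2 peak of R1 cells, and overlapped no region that the authors list with H3K4me1 or H3K4me3 in 129/Ola ES cells, each at 1 bp or more. This held for 14184 of 57381 distal H3K4me1 peaks, 24.7%, out of 82053 H3K4me1 peaks in all. Within the list of called H3K4me1 peaks, no condition uses the deposited H3K4me1 values, although each peak had to be called in R1 cells.

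The marks were profiled by chromatin immunoprecipitation with sequencing (ChIP-seq). R1 cells (strain 129SV) were either wild-type or MLL3/4 double catalytic dead, meaning that the methyltransferases MLL3 and MLL4 carry changes that abolish catalysis. The latter are called mutant below, and the sources used here do not give the number of clones behind them. The labels give 2 H3K4me1 libraries per R1 line, and both lines were grown on mouse embryonic fibroblast feeders in serum-free medium with leukemia inhibitory factor. The 129/Ola cells, with 3 H3K4me1 and 2 H3K4me3 libraries, were kept on feeders and then passaged without them before crosslinking. The same H3K4me1 antibody catalogue number is given for R1 and 129/Ola cells.

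H3K4me1 marks enhancers, the distal elements that regulate genes from afar, and is laid down there mainly by MLL3 and MLL4. It is found at active enhancers, where H3K27 acetylation accompanies it, and at primed ones that lack acetylation. H3K4me2 flanks the same elements and promoters, and H3K4me3 is the mark of promoters. A distal H3K4me1 peak with no H3K4me2 peak therefore has a call for the lowest methylation state without one for the next.

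Each peak has 1 deposited fold enrichment per R1 line, with no counts and no value per library. The depth and the error between libraries are thus unknown, no test between the lines or between sets of peaks was possible, and all comparisons are of size. Peaks are not replicates of a condition, and neighbouring ones can be parts of one domain. Values and positions are laid out in different chromosome orders in the deposited tables, and were realigned first. Positions are in mm9 as deposited, and genes and sequences at the peaks are not analysed here, since no mm9 reference was used.

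Most private peaks had much less H3K4me1 in mutant than in wild-type cells. The fold enrichment of the private peaks in wild-type cells lay in a narrow range, with a median of 2.92 and quartiles of 2.68 and 3.18 (lowest 0.437, highest 4.90). In mutant cells the median was 1.24, with quartiles of 0.797 and 1.94 (lowest 0.0487, highest 5.52). The quartile ranges of both lines did not overlap. The median log2 ratio of mutant over wild-type fold enrichment was -1.27, and 87.7% of private peaks had a ratio below 0. Only 2 private peaks were below 2 in both lines, so one low in mutant cells was listed by its wild-type value. The size of the decrease is thus partly set by how the list was made. The other sets of H3K4me1 peaks used below come from the same list.

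Taking a ratio of 2 as the limit, 8621 private peaks (60.8%, Wilson 95% interval 60.0 to 61.6, counting error only) were at least 2-fold lower in mutant cells, while 409 (2.88%) were higher by that much. The interval treats peaks as independent, which neighbouring ones were not, so the true error is larger. Over all H3K4me1 peaks the shares lower and higher were 28.4% and 15.2%, and the median log2 ratio was -0.21. Relative to that shift the private median was -1.06. Among all distal peaks the shares were 37.7% and 5.66%. The remaining 5154 private peaks, 36.3%, were within 2-fold. After quantile normalization of the lines 31.6% of private peaks were lower and 7.23% higher, and with the 25% of all peaks of lowest mean enrichment over the lines left out 20.8% were lower. That filter keeps 5111 private peaks and acts on values that enter the ratio. The shares over all H3K4me1 peaks under these settings are not given here. The values of 31.6%, 7.23% and 20.8% are thus not to be set against 28.4% and 15.2%.

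A fold enrichment below 1, no more signal than the reference it is measured against, was reached in mutant cells at 5277 private peaks. This is 37.2% of them, against 13.7% of all H3K4me1 peaks and 27.4% of the most similar set, described below. All such peaks had the higher value in wild-type cells, since no listed peak was below 1 in both lines.

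**Figure D1:**
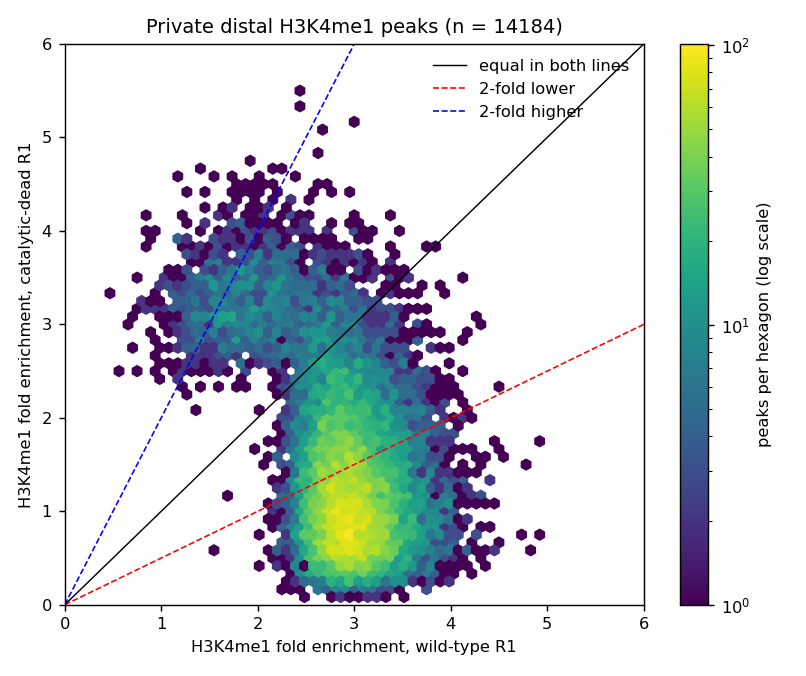
H3K4me1 fold enrichment of the 14184 private distal peaks in wild-type (x axis) and mutant R1 cells (y axis), as the number of peaks per hexagon on a log colour scale; lines mark equal values and 2-fold differences. Most peaks lie near 2.92 on the x axis and below the 2-fold lower line, and a small group with wild-type values under 2 lies mostly above 2.5 on the y axis.

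Some private peaks were listed through the mutant line. In 801 of them, 5.65%, the wild-type fold enrichment was below 2, with a median of 1.63. Only 2 private peaks were below 2 in both lines, and at 1% of them the higher of both values was below 2.36. A peak low in wild-type cells was thus in the list by a high mutant value, so the mutant median of these 801, 3.21, follows from how they were picked out and is no result. The sources used here do not say how the list was drawn from the lines. Across private peaks Spearman's rho of the 2 lines' values was -0.30, which this property of the list shapes.

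Across levels of wild-type enrichment the mutant value was nearly flat once the wild-type value passed 2.5. Between wild-type values of 2.5 and 3 the mutant median was 1.19 (6386 peaks), between 3 and 3.5 it was 1.09 (4741 peaks), and between 3.5 and 4 it was 1.12 (1052 peaks). Above 4 it was 1.13 (117 peaks). In these classes the strongest private peaks of wild-type cells were thus no stronger in mutant cells than the others. The log2 ratio went from -1.22 in the first of these classes to -1.86 in the last. The wild-type value is the denominator of the ratio, so this fall restates the flat mutant medians and is no separate result.

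Next, the private peaks were set against the other distal peaks, split by the 2 overlaps that define them. Distal peaks that overlap a listed 129/Ola region but no H3K4me2 peak (12045 shared peaks) had median fold enrichments of 3.06 in wild-type and 1.41 in mutant cells, and a median log2 ratio of -1.14. Distal peaks with an H3K4me2 peak and no listed region (7036) had 2.84 and 2.74, a median log2 ratio of -0.12. Those with both (24116) had 3.20 and 2.98, a median log2 ratio of -0.15. The sets without H3K4me2 thus had similar ratios whether or not the region was listed in 129/Ola cells, and so had the sets with H3K4me2. The share at least 2-fold lower was 56.3%, 24.1% and 18.9% in these 3 sets, against 60.8% of private peaks. The H3K4me2 list comes from the same R1 lines, so overlap with it may not be independent of the H3K4me1 values.

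**Figure D2:**
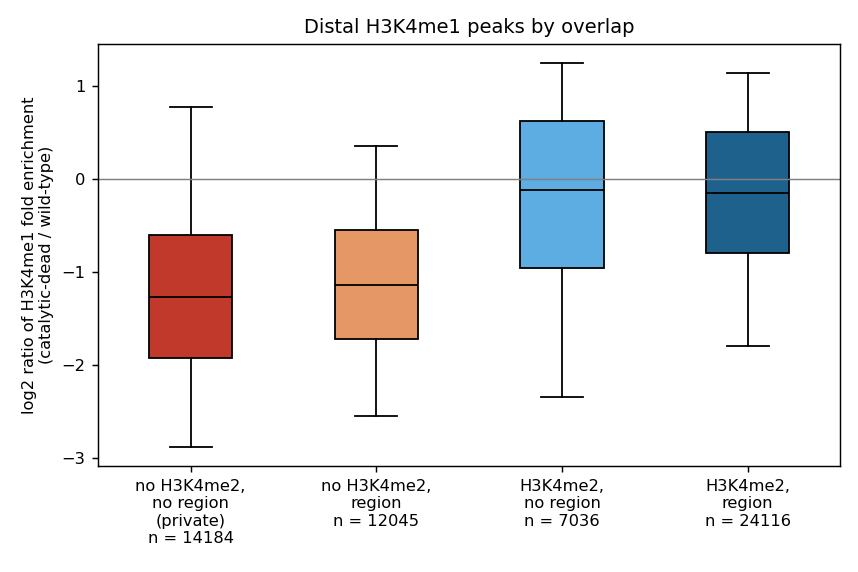
Log2 ratio of H3K4me1 fold enrichment, mutant over wild-type, in the 4 sets of distal peaks made by overlap with an H3K4me2 peak and with a listed 129/Ola region. Boxes span the quartiles, lines are medians and whiskers reach the 5th and 95th percentiles; the medians are -1.27, -1.14, -0.12 and -0.15 from left to right.

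The private peaks were narrower than shared ones. Their median width was 1048 bp (quartiles 772 and 1432) against 1400 bp for shared peaks and 1532 bp for all distal peaks. A wider peak can more easily overlap a region by 1 bp, so this difference may partly follow from the definition. Distal peaks with H3K4me2 had the same order, 1246 bp without a listed region and 2359.5 bp with one. Width went with the ratio only weakly: in the 4 width classes made by the quartiles of all distal peaks the private median log2 ratio was -1.18, -1.34, -1.31 and -1.23 from narrow to wide. Each was below that of shared peaks of the same class, at -1.03, -1.18, -1.22 and -1.11.

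The private median log2 ratio differed by -0.13 from that of shared peaks, and was lower on 18 of 20 chromosomes. The exceptions were chromosome 18, where the difference was 0.07, and chromosome 19, where it was 0.0042. The 18 include chromosome 12, at only -0.0034, and the X chromosome, which has only 12 shared peaks. Averaged over classes of both wild-type enrichment and width the difference was -0.19, below 0 in 14 of 16 classes. It was -0.017 when averaged over classes of the number of other H3K4me1 peaks within 100 kb, below 0 in 4 of 6. Private peaks had fewer such neighbours, a median of 13 against 18. The sign of the overall difference turned to 0.024 after quantile normalization and to 0.18 with the 25% of peaks of lowest mean enrichment left out, a filter that acts on values in the ratio. Within the classes of enrichment and width it was -0.096 after quantile normalization and -0.013, near 0, with that filter. Wild-type enrichment is the denominator of the ratio, so these classes also act on values in the ratio.

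Increases differed more between the sets in relative terms. At least 2-fold higher H3K4me1 in mutant cells was seen at 2.88% of private and 0.672% of shared peaks, but at 10.8% of distal peaks with H3K4me2 and no listed region. It was 8.26% at distal peaks with both. The share of peaks with a wild-type value below 2 was 5.65%, 1.74%, 13.3% and 3.33% in these 4 sets, which is not the same order. Among private peaks with a wild-type value of at least 2, 0.112% were at least 2-fold higher, but a peak below 2 is listed only by its mutant value, so this split largely restates how the list was made.

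The 409 private peaks that were higher in mutant cells had medians of 1.43 in wild-type and 3.42 in mutant cells. They lay nearer to proximal peaks and to H3K4me2 than the 8621 lower ones: 19.8% against 2.39% were within 1 kb of a proximal H3K4me1 peak, and 24.4% against 10.2% within 1 kb of an H3K4me2 peak. Among the 5154 within 2-fold these shares were 5.63% and 13.6%. The median gap to a listed region was 3.69 kb for the higher peaks, 6.62 kb for the lower and 3.62 kb for those within 2-fold. The higher and the lower peaks both had a median of 12 other peaks within 100 kb, against 16 for those within 2-fold. The higher peaks were also narrower than the lower ones, with a median width of 787 against 1082 bp. Of the private peaks within 1 kb of a proximal H3K4me1 peak (577), 14.0% were higher and 35.7% lower, and their median log2 ratio was -0.56.

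The median change in H3K4me1 was graded by how isolated a private peak was. The gap to the nearest listed 129/Ola region had a median of 5.11 kb (quartiles 1.76 and 15.9 kb). At private peaks within 1 kb of a listed region (2064) wild-type cells had a median fold enrichment of 2.88 and mutant cells of 1.39. At 1 to 3 kb (3199) the medians were 2.88 and 1.41, and at 3 to 10 kb (4057) 2.93 and 1.31. At 10 to 30 kb (2699) they were 2.96 and 1.16, at 30 to 100 kb (1426) 2.97 and 0.958, and beyond 100 kb (739) 3.01 and 0.642. The wild-type medians thus differed by little, while the mutant medians went down with distance beyond 3 kb. A peak low in mutant cells had to be high in wild-type cells to be listed. The even wild-type medians are therefore partly set by the list. The median log2 ratio went from -1.08 within 1 kb to -2.25 beyond 100 kb. The share at least 2-fold lower was 52.6% within 1 kb and 86.3% beyond 100 kb.

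The number of other H3K4me1 peaks of any kind within 100 kb gave the same order. Private peaks with no other peak in that range (383) had medians of 3.0 in wild-type and 0.622 in mutant cells, a log2 ratio of -2.28. With 1 or 2 others (982) the mutant median was 0.828, with 6 to 10 (2648) it was 1.16, and with over 20 (3718) it was 1.47. In the last class the wild-type median was 2.89 and the log2 ratio -1.01. The share at least 2-fold higher had no steady order by neighbours. It was 2.09% with no other peak, 3.29% with 6 to 10 and 2.12% with over 20. Private peaks with at most 2 neighbours differed from those with over 20 by -0.99 in median log2 ratio. This difference was below 0 on all 19 autosomes, from -1.37 on chromosome 5 to -0.40 on chromosome 19. On the X chromosome no private peak had over 20 neighbours.

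**Figure D3:**
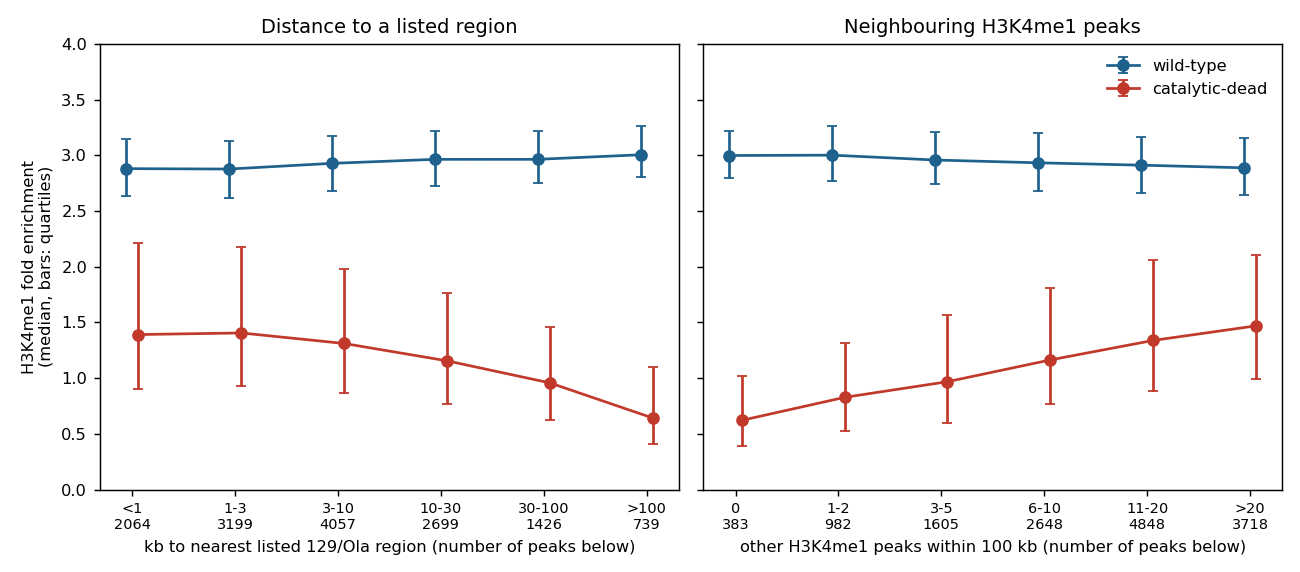
Median H3K4me1 fold enrichment of private peaks in wild-type (blue) and mutant (red) R1 cells, by distance to the nearest listed 129/Ola region (left) and by the number of other H3K4me1 peaks within 100 kb (right). Bars span the quartiles and the number of peaks stands under each class. Wild-type medians stay between 2.88 and 3.01, which the peak list partly sets, and mutant medians run from 0.622 to 1.47.

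The order by neighbours was seen at each level of wild-type enrichment, except that in the lowest quartile it was not even. In the highest quartile of wild-type enrichment the mutant medians were 0.718 with at most 2 neighbours, 0.976 with 3 to 10, 1.17 with 11 to 20 and 1.34 with over 20. In the lowest quartile they were 1.28, 1.82, 2.22 and 1.90. Distance to a listed region went with the ratio less within classes of neighbours. Over all private peaks the median log2 ratio was -1.08 within 1 kb, -1.12 at 1 to 10 kb and -1.57 beyond 10 kb. Among those with at most 5 neighbours it was -1.80, -1.61 and -1.86, with 6 to 20 it was -1.13, -1.15 and -1.37, and with over 20 it was -0.93, -1.0 and -1.24. With the 25% of all peaks of lowest mean enrichment left out the neighbour difference was -0.049, and that between peaks beyond 100 kb and within 1 kb of a region was -0.25. That filter takes out the low mutant values the gradient consists of.

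Shared peaks without H3K4me2 showed a similar gradient. Their mutant median was 0.708 with no neighbour (118 peaks) and 1.64 with over 20 (4645 peaks), with wild-type medians of 3.17 and 3.03. Distal peaks with an H3K4me2 peak and no listed region had mutant medians of 2.84 with no neighbour (205 peaks), 1.84 with 1 or 2 (551 peaks) and 2.66 with over 20 (1674 peaks), so their values had no steady order. The difference between these gradients was not tested.

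Neighbouring private peaks resembled each other. For 778 pairs of adjacent private peaks less than 1 kb apart, the log2 ratios had a Spearman's rho of 0.72, with a median absolute difference of 0.46. For 971 pairs 1 to 5 kb apart it was 0.51, for 2316 pairs 5 to 20 kb apart 0.31, and for 4524 pairs 100 kb to 1 Mb apart 0.10. The likeness thus faded with distance. The closest private peaks lay 51 bp apart, so close pairs may share fragments, and both values rest on the same libraries.

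**Figure D4:**
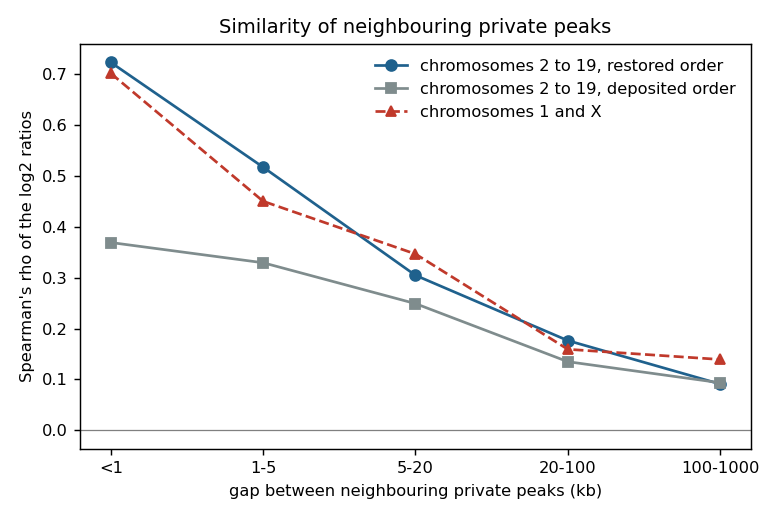
Spearman's rho between the log2 ratios of adjacent private peaks, by the gap between them in kb, on chromosomes 2 to 19 in the restored and in the deposited order and on chromosomes 1 and X, where both orders coincide. Below 1 kb rho is 0.72 in the restored order, 0.37 in the deposited order and 0.70 on chromosomes 1 and X.

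The gap from a private peak to the nearest H3K4me2 peak had a median of 6.69 kb. Within 1 kb (1681 private peaks) that H3K4me2 peak had medians of 4.61 in wild-type and 3.12 in mutant cells, a median log2 ratio of -0.51. At 3 to 10 kb (4241 private peaks) this H3K4me2 ratio was -0.26, and beyond 100 kb (665) it was 0.11, against -0.13 over all 53501 H3K4me2 peaks. The kind of H3K4me2 peak changed with the gap: 79.5% were distal within 1 kb and 66.6% beyond 100 kb, and distal and proximal H3K4me2 peaks as a whole had median ratios of -0.46 and 0.18. Where the nearest H3K4me2 peak was distal, its ratio was -0.78 within 1 kb (1337), -0.61 at 3 to 10 kb (3021) and -0.20 beyond 100 kb (443). Where it was proximal, the ratio was 0.15 (344), 0.18 (1220) and 0.37 (222). The order by gap was thus seen within both kinds, apart from 0.13 at 1 to 3 kb for proximal ones, with distal ones lower and proximal ones higher in mutant cells throughout. The H3K4me1 ratio of the private peaks themselves went the other way, at -1.07, -1.13 and -2.18 in the same 3 classes of gap. Within 1 kb, rho between the H3K4me1 ratio of the private peak and the H3K4me2 ratio of its neighbour was 0.53, and at 10 to 100 kb it was 0.06. These are descriptions across peaks of the same cells, and 1 H3K4me2 peak can be the neighbour of several private peaks.

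H3K4me3 peaks were rare at private peaks, which may largely follow from the definition. Private peaks are distal, overlap no H3K4me2 peak and overlap no listed region, including regions listed for H3K4me3. An H3K4me3 peak overlapped 30 private peaks, 0.212%, and 0.183% of the shared peaks. The shared peaks are also distal and without H3K4me2, so this comparison cannot show whether H3K4me3 is rarer here than at other H3K4me1 peaks. All 30 H3K4me3 peaks were distal, with median fold enrichments of 3.19 in wild-type and 3.90 in mutant cells. Their H3K4me1 medians were 2.74 and 2.29, 5 of the 30 were at least 2-fold lower, and 4 were higher by 2-fold or more.

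The 129/Ola region nearest to a private peak carried H3K4me1 without H3K4me3 in 64.3% of cases, both marks in 25.9% and H3K4me3 alone in 9.79%. Among the 67697 listed regions these kinds made up 61.8%, 27.2% and 11%. H3K27ac, the acetylation of active elements, was listed at 59.7% of these nearest regions, counted once per private peak, and at 62.6% of all listed regions. The surroundings of private peaks were thus close in makeup to the list as a whole. Private peaks within 10 kb of an H3K4me3-only region (694) had a median log2 ratio of -0.58, with 12.0% at least 2-fold higher. Near H3K4me1-only regions (6340) and regions with both marks (2286) it was -1.14 and -1.15, with 2.08% and 3.24% higher.

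At the border of the definition the values did not jump. The 119 private peaks within 100 bp of a listed region had a median log2 ratio of -1.14, and the 138 peaks without H3K4me2 that overlapped one by at most 100 bp, and so were not private, had -1.11. The 101 private peaks within 100 bp of an H3K4me2 peak had -1.07, and the 65 peaks off the regions that overlapped one by at most 100 bp had -1.19. When an overlap had to cover at least 50% of the H3K4me1 peak, 25779 peaks were private, 44.9% of distal peaks, with a median log2 ratio of -1.15. How many peaks are called private thus depends on the overlap asked for. A peak left out of the 129/Ola list may carry H3K4me1 there below the limit of that list, and its level in 129/Ola cells was not analysed here.

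Private peaks were spread over all autosomes and the X chromosome. They made up between 21.0% (chromosome 7) and 29.6% (chromosome 1) of the distal peaks of an autosome, and 25.6% on the X chromosome (134 private peaks). The median log2 ratio ranged from -1.40 on chromosome 7 to -1.14 on chromosome 19 and was -1.69 on the X chromosome. There the medians were 3.08 in wild-type and 0.968 in mutant cells, and 76.1% of private peaks were at least 2-fold lower, against 55.2% to 66.7% on autosomes.

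**Figure D5:**
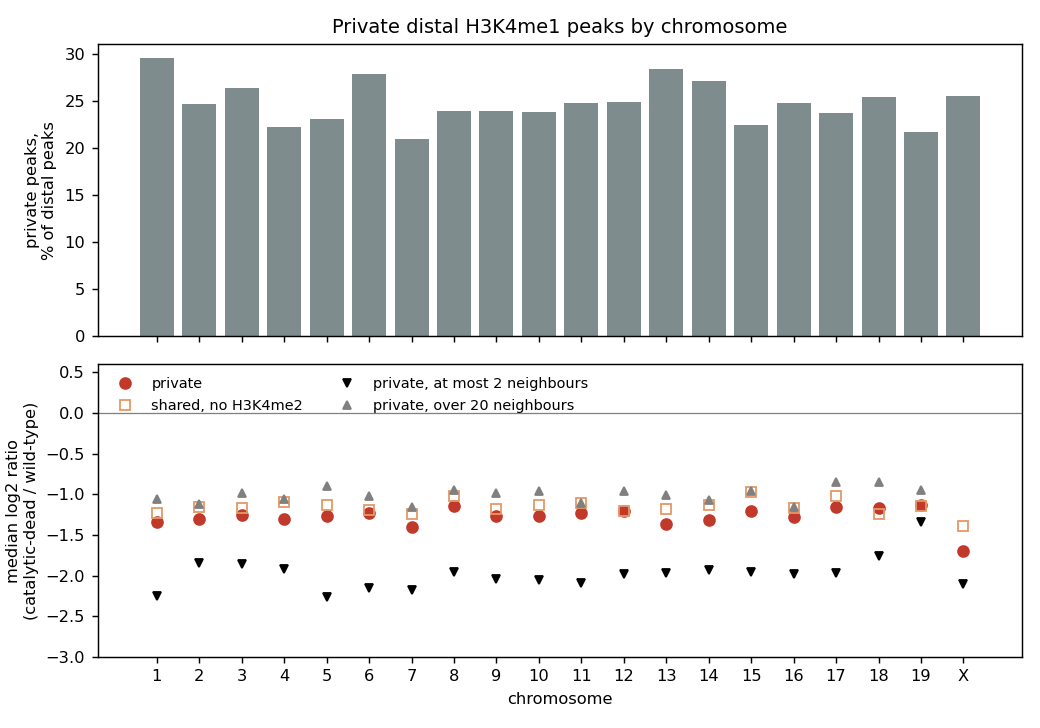
Private peaks by chromosome: their share of distal H3K4me1 peaks in percent (top) and median log2 ratios, mutant over wild-type (bottom), for all private peaks, shared peaks without H3K4me2, and private peaks with at most 2 or over 20 other H3K4me1 peaks within 100 kb. Peaks with at most 2 neighbours lie below those with over 20 on every autosome.

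At the scale of 1 Mb, 2083 windows held at least 1 private peak, with a median of 5. In the 1065 of them with at least 20 distal peaks, private peaks were 23.1% of the distal peaks at the median window and 61.9% at the highest. The windows with most private peaks were 30 to 31 Mb of chromosome 16 (33 peaks), 72 to 73 Mb of chromosome 6 (33 peaks) and 26 to 27 Mb of chromosome 14 (32 peaks). They differed in their change: the median log2 ratio was -1.66, -0.76 and -1.16, and 28, 13 and 21 of the peaks were at least 2-fold lower.

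Among single peaks, the highest wild-type value was at chromosome 15, 25618015 to 25618693, where wild-type cells had a fold enrichment of 4.90 and mutant cells 1.75. At chromosome 18, 61395474 to 61396483, it was 4.90 and 0.729. At chromosome 5, 126558348 to 126559742, which lies 602 kb from the nearest proximal H3K4me1 peak, it was 4.84 and 0.586, a log2 ratio of -3.05. The next were chromosome 17, 87605836 to 87606484, with 4.80 and 1.52, and chromosome 3, 50890920 to 50891902, with 4.70 and 0.718. All 5 were at least 2-fold lower in mutant cells, with mutant values on both sides of the private median. They were picked by their wild-type value, the denominator of the ratio, which makes a low ratio likely.

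Of the private peaks, 1032 (7.28%) had a mean enrichment over the lines above 2.82, the median of that mean among all H3K4me1 peaks. The lowest log2 ratio among them was -1.73, at chromosome 13, 115047995 to 115048786, with fold enrichments of 4.43 in wild-type and 1.33 in mutant cells. The 5 lowest ratios ran from -1.73 to -1.57, at wild-type values of 4.28 to 4.80. This limit leaves out private peaks with the lowest mutant values, so larger decreases exist below it: 5% of all private peaks had a log2 ratio of -2.88 or less.

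The highest log2 ratio under the same limit was 2.01, at chromosome 10, 114828908 to 114829601, with 1.14 in wild-type and 4.59 in mutant cells. It lies 0.447 kb from a listed 129/Ola region. At chromosome 15, 98906873 to 98909605, the values were 1.27 and 4.41, and the nearest proximal H3K4me1 peak was 0.23 kb away. At chromosome 16, 37907667 to 37908331, they were 1.40 and 4.69. The 5 highest ratios ran from 1.58 to 2.01, all at wild-type values below 1.5.

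The widest private peaks showed no common change. The widest, 6080 bp at chromosome 6, 72835748 to 72841828, had 2.98 in wild-type and 3.34 in mutant cells. It lies in the chromosome 6 window named above. At chromosome 2, 152616911 to 152622104, the values were 2.89 and 2.04, and at chromosome 13, 59033261 to 59038145, they were 3.22 and 1.03. The last of these was at least 2-fold lower, the other two were within 2-fold.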

How the data were processed

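For R1 cells the deposited peak tables, 1 per H3K4 methylation state, hold 1 fold enrichment (ratio, FE per the file headers) per peak and line, and a table of 129/Ola regions whose factor values are on a log2 scale, judged from the values; of the latter, positions and the presence of H3K4me1, H3K4me3 and H3K27ac were used. Per the submitters' processing notes the build was mm9 and the tools for R1 libraries were deepTools 2.5.1 and 2.5.3, MACS2 2.1.0.20150731, Picard 2.11.0 and BWA 0.7.13-r1126; for 129/Ola cells they were Bowtie, Picard and MACS2. Not given in the sources used here are the role of each tool, the pooling of libraries and the reference of the enrichment, and the depth is unknown.

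Values are laid out by chromosome in number order and positions in text order, so each chromosome's block of values was assigned to the positions of that chromosome. The mean rho of width with wild-type enrichment on chromosomes 2 to 19 was 0.253 in the restored and 0.00253 in the deposited order, against 0.215 on chromosome 1, where both coincide. The change class had 0 exceptions to a fold of 2.

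Log2 ratios used no pseudocount. Overlaps and gaps were computed in Python 3.11.15 with pandas 2.3.3 and numpy 2.4.6, and bedtools 2.31.1 gave the same 14184 members. The order, gap and median steps were tested on simulated data. Single peaks were named by rule: the 5 highest wild-type values, the 5 lowest and 5 highest ratios above the median mean, the 3 widest, and the 3 windows of 1 Mb with most members. The members and comparisons were chosen with earlier results of these data known. Alternatives are in the closing section.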

Additional observations from a re-analysis of the deposited data

How the results depend on the processing

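No paired analysis was possible because the tables give 1 value per line, so leaving out a replicate was not possible either. Excluding peaks with H3K4me3 changed no value beyond its interval, but it removed only 30 private peaks (0.212%), so little change was possible. The neighbour and region differences with all their settings, the wild-type limit of 2 and the neighbour classes were chosen after seeing the data.

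In the order main, the deposited layout, chromosomes 1, X and Y, a margin of 1000 bp, an overlap of 50%, median centring, quantile normalization, a pseudocount of 0.5, without the lowest 25%, wild-type above the median and wild-type of at least 2, the private median was -1.27, -0.32, -1.39, -1.31, -1.15, -1.06, -0.66, -1.0, -0.44, -1.57 and -1.34. The percent at least 2-fold lower was 60.8, 31.2, 65.4, 63.0, 56.2, 52.3, 31.6, 50.1, 20.8, 75.5 and 64.4, and 75.5 at a fold of 1.5. The percent at least 2-fold higher was 2.88, 13.4, 2.31, 2.57, 2.44, 4.84, 7.23, 1.39, 5.17, 0 and 0.112, then 7.04 at a fold of 1.5 and 2.58 from a width of 500 bp. Apart from the main setting, the shares over all H3K4me1 peaks are not given here. An excess over all peaks can thus not be read from these percents.

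The difference from shared peaks moved from -0.13 to -0.024 in the deposited layout, -0.16 with the margin, -0.084 with the pseudocount, -0.23 above the wild-type median, -0.18 from a wild-type value of 2 and -0.017 over neighbour classes; it turned to 0.024 after quantile normalization and 0.18 without the lowest 25%. Within enrichment and width classes it moved from -0.19 to -0.046 in the deposited layout, -0.096, -0.13 and -0.013 with quantile normalization, pseudocount and low filter, and -0.24 above the wild-type median. The private share of distal peaks moved from 24.7% to 29.1% on chromosomes 1, X and Y, 19.6% with the margin, 44.9% at 50% overlap and 24.3% from 500 bp.

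The neighbour difference moved from -0.99 to -0.17 in the deposited layout, -1.19 on chromosomes 1, X and Y, -1.09 at 50% overlap, -0.66 and -0.68 with quantile normalization and pseudocount, and -0.049 with the low filter. The region difference moved from -1.17 to -0.12, -0.74, -0.77 and -0.25 with the deposited layout, quantile normalization, pseudocount and low filter, and to -0.97 above the wild-type median.

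Of 17 named peaks, 10 changed sign in the deposited layout, where they carry the values of other peaks: chromosome 17 at 87605836 (1.05), 3 at 50890920 (1.17), 13 at 115047995 (0.020), 7 at 75383874 (0.57), 3 at 51552897 (0.25), 10 at 114828908 (-2.27), 15 at 98906873 (-0.90), 16 at 37907667 (-0.35), 16 at 34700027 (-0.17) and 13 at 59033261 (1.38). Median centring, quantile normalization and the pseudocount changed the sign of 0 of them. The low filter and the limits on wild-type values act on values in the ratio, by construction; the cause of other shifts was not tested.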
